A study of Mus musculus with 12 samples.

Results

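The genes described here are 35 interferon-stimulated genes, taken by symbol from the read count table of a mouse melanoma study. They are 35 of the 47069 genes in that table, each matched 1 Ensembl identifier, and all 35 passed the filter on low counts that left 15925 genes to test. The rule names known antiviral genes and uses no measured value. By role it holds 3 transcription factors (Irf7, Irf9, Stat2), 4 sensors of nucleic acid (Ddx58, Ifih1, Dhx58, Zbp1), 3 genes of the ISG15 pathway (Isg15, Usp18, Herc6), 3 IFIT genes, 5 OAS genes, 7 antiviral effectors (Mx1, Mx2, Rsad2, Bst2, Cmpk2, Eif2ak2, Samd9l), 3 genes of the PARP and DTX3L group, and 7 others (Ifi44, Rtp4, Xaf1, Trim30a, Ifi35, Phf11d, Ifi27l2a).

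Type I interferons are secreted when a cell senses foreign or misplaced nucleic acid, or when myeloid cells respond to damage, and they bind the receptor chains encoded by Ifnar1 and Ifnar2. The kinases JAK1 and TYK2 then activate ISGF3, a complex that holds STAT2 and IRF9 and binds the interferon-stimulated response element (ISRE) in the promoters of its targets. Many of the same genes also respond to interferon gamma, the cytokine of activated T and NK cells, which acts mainly at gamma-activated sites (GAS). In tumors, these genes are read as a trace of interferon exposure of tumor cells, myeloid cells and lymphocytes alike.

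B16 F1, a pigmented melanoma line of C57BL/6 origin, was implanted at 100000 cells into the brain of C57BL/6 mice, and the intracranial tumor was taken for RNA-seq at day 9. The 12 libraries form 4 groups of 3, which the series describes as biological triplicates. All groups carried the intracranial tumor. They were intracranial tumor with IgG (intracranial-only IgG), intracranial tumor with anti-PD-1 plus anti-CTLA-4 (intracranial-only therapy), intracranial and extracranial tumor with IgG (both-tumor IgG), and intracranial and extracranial tumor with anti-PD-1 plus anti-CTLA-4 (both-tumor therapy). Anti-PD-1 and anti-CTLA-4 are antibodies that block inhibitory receptors of T cells, and the series asks whether their effect in the brain depends on disease outside it. Doses, ages and the site of the extracranial tumor are not given in the sources used here. Replicate numbers follow accession order and pair nothing.

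The ISRE is the sequence that ISGF3 binds, so the promoter windows of 6 of the 35 genes, all with a match to it, are shown first. They were chosen to show a dense cluster of matches (Isg15, Ifit1, Ifit3), a single match (Rsad2), the most abundant of the 35 genes (Bst2) and the gene with the narrowest range over the libraries (Eif2ak2). Each window runs 5′ to 3′ on the strand of its gene, from 250 bases before to 50 bases after the annotated start in RefSeq on GRCm38.p6. Capitals mark matches to the ISRE core GAAANNGAA on either strand, where overlapping matches merge into 1 run and a match on the other strand appears as its reverse complement. The windows are Isg15 at chr4:156200769-156201068 (minus strand), Ifit1 at chr19:34640639-34640938 (plus), Ifit3 at chr19:34583279-34583578 (plus), Rsad2 at chr12:26456403-26456702 (minus), Bst2 at chr8:71537423-71537722 (minus) and Eif2ak2 at chr17:78882523-78882822 (minus).
Isg15: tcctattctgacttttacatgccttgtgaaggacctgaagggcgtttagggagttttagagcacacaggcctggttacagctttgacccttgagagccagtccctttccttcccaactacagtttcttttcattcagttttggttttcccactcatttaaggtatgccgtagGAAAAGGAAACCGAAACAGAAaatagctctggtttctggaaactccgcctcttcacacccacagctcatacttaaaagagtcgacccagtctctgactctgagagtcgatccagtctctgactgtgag
Ifit1: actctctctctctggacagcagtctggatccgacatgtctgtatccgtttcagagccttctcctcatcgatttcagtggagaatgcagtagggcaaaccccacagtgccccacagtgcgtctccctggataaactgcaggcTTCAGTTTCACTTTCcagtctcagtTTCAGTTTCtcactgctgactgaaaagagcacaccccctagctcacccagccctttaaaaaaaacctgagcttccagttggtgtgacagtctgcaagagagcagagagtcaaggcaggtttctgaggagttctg
Ifit3: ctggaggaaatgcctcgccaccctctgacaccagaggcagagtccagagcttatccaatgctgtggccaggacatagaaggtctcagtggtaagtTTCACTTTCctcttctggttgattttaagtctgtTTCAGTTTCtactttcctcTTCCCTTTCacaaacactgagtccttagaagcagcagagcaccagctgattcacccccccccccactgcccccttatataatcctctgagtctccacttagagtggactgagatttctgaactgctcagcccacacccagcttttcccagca
Rsad2: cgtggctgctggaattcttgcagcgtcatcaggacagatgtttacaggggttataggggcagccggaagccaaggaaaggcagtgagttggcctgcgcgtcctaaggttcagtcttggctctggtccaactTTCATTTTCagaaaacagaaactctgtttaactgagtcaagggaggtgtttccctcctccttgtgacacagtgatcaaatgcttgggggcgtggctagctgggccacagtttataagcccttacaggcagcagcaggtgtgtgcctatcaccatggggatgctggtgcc
Bst2: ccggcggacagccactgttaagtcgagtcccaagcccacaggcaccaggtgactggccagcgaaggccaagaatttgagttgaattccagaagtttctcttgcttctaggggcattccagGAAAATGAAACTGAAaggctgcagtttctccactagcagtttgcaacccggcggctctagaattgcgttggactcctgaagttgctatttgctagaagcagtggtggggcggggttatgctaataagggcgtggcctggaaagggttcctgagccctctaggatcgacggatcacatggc
Eif2ak2: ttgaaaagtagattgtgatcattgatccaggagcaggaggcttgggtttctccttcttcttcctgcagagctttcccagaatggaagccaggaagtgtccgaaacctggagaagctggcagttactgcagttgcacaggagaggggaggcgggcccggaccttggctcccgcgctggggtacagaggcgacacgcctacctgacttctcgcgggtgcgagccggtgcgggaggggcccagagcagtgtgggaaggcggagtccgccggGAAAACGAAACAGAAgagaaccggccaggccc

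Isg15 carried 3 overlapping matches that began 78, 72 and 66 bases before its start. Ifit1 had 3 matches, at 109, 103 and 84 bases before the start, and Ifit3 had 3, at 155, 121 and 102 bases. The pair in Bst2 began 130 and 124 bases before the start, beside a GAS match (TTCNNNGAA) at 136 bases that overlaps it. In Eif2ak2, which encodes the double-stranded RNA kinase PKR, the 2 matches lay 18 and 24 bases after the start.

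RefSeq windows were found for 25 of the 35 genes, and the other 10 (Mx1, Mx2, Oas2, Usp18, Dhx58, Zbp1, Rtp4, Parp14, Parp9 and Ifi27l2a) are named only. The ISRE core was present in 14 of the 25, or 56% (95% exact binomial interval 34.9% to 75.6%), against 9.76% of the 27025 genes with a window. The narrower form GAAANTGAA was present in 9 of 25 (36%) against 2.55% of all genes. GAS matches were present in 5 of 25 (20%, interval 6.83% to 40.7%) against 9.55%. Of the 26 ISRE matches, 15 began within 120 bases before the start and 6 began after it. These are counts of letters in a fixed window, given as a description of the genes.

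**Figure D1:**
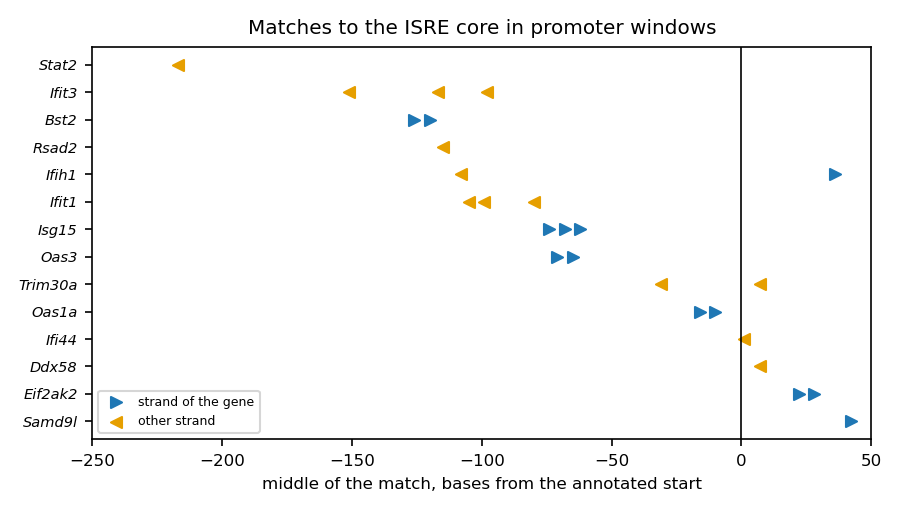
Position of each match to the ISRE core in the promoter windows of the 14 genes that hold one. The horizontal axis is the distance in bases of the middle of the match from the annotated start, and the arrow direction and colour give the strand. Most of the 26 matches lie before the start, and the 2 of Eif2ak2 lie after it.

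Library totals ran from 18427495 to 22294182 reads, and CPM below are counts scaled to library sizes with TMM factors. Melanocyte marker genes, 8 in all, summed to between 22600 and 30200 CPM, so the labelled melanoma was present in each library. Brain genes were measured too, and their amount differed between tumors: 12 neuron markers summed to 358 to 737 CPM in intracranial-only IgG, 111 to 120 CPM in intracranial-only therapy, 117 to 847 CPM in both-tumor IgG and 604 to 1870 CPM in both-tumor therapy. The low value of both-tumor IgG came from replicate 2, whose own replicates had 644 and 847 CPM, and whose sample name in the labels has another ending than those of the other libraries. In bulk tissue of this kind, fewer cells of a type and less RNA per cell cannot be told apart. Values below are given for replicates 1, 2 and 3 in that order, and every fold change is on the log2 scale. The p-values test differences between group means against the spread between replicate libraries.

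The 35 genes varied together from library to library, and 1 or 2 libraries of each group stood away from the rest. The mean log2 CPM over the 35 genes was 2.64, 6.79 and 2.85 in intracranial-only IgG, 2.57, 3 and 5.73 in intracranial-only therapy, 5.72, 3.18 and 5.08 in both-tumor IgG, and 5.75, 7.21 and 6.79 in both-tumor therapy. Replicate 2 of intracranial-only IgG was thus level with replicate 3 of both-tumor therapy, while its own replicates were near the bottom of the series. The reads of the 35 genes took 0.0432%, 0.513% and 0.048% of all reads in intracranial-only IgG and 0.0436%, 0.0509% and 0.262% in intracranial-only therapy. They took 0.248%, 0.0549% and 0.183% in both-tumor IgG and 0.275%, 0.718% and 0.53% in both-tumor therapy. The lowest library of both-tumor therapy, at 0.275%, was below the highest of intracranial-only IgG (0.513%). It was just above the highest of intracranial-only therapy (0.262%) and of both-tumor IgG (0.248%).

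Group means of that log2 level were 6.58 ± 0.75 in both-tumor therapy, 4.66 ± 1.32 in both-tumor IgG, 4.09 ± 2.34 in intracranial-only IgG and 3.77 ± 1.72 in intracranial-only therapy (mean ± SD, n = 3 each). The pooled SD within groups was 1.64. The lowest both-tumor therapy library (5.75) was just above the highest both-tumor IgG library (5.72), and below the high library of intracranial-only IgG. The lower 3 groups overlapped one another, with gaps between neighbouring means smaller than the pooled SD. Single genes varied as much: the median SD within groups was 1.65 over the 35 genes and 0.27 over all genes tested. It was smallest for Eif2ak2, at 0.67, and largest for Zbp1, at 2.98.

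The ordering of replicates was nearly the same for each gene. Replicate 2 of intracranial-only IgG was the highest of its group for 35 of 35 genes, and so were replicate 3 of intracranial-only therapy and replicate 1 of both-tumor IgG in theirs. Replicate 2 of both-tumor therapy was the highest of its group for 34 genes, and replicate 1 of that group and replicate 2 of both-tumor IgG were the lowest of theirs for 35 of 35. In intracranial-only IgG, replicate 2 was above the mean of its replicates by 2.79-fold (Eif2ak2) to 216-fold (Zbp1), with a median of 15.6-fold. In intracranial-only therapy, replicate 3 was above by 2.2-fold (Ifi27l2a) to 37.5-fold (Zbp1), with a median of 8.77-fold. The mean of replicates 1 and 3 of both-tumor IgG exceeded replicate 2 by 1.65-fold (Ifit2) to 15.1-fold (Oas3), with a median of 4.94-fold. In both-tumor therapy the corresponding ratio of the mean of replicates 2 and 3 to replicate 1 was 1.27 (Irf9) to 5.88 (Oas3), with a median of 2.27.

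**Figure D2:**
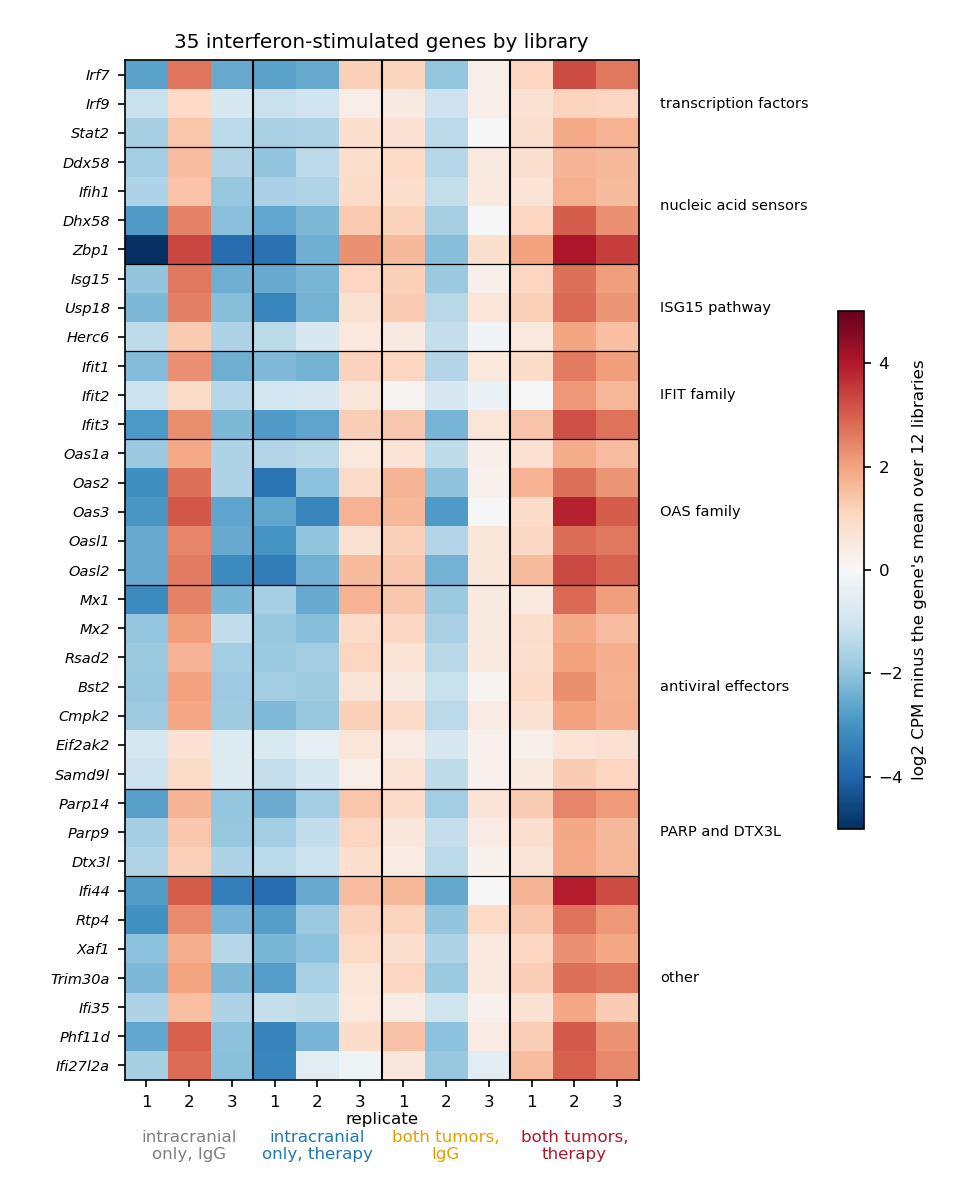
Level of each of the 35 genes in each of the 12 libraries, as log2 CPM minus the mean of that gene over the libraries, with genes in rows by role and libraries in columns by group and replicate. Whole columns change colour together: replicate 2 of intracranial-only IgG, replicate 3 of intracranial-only therapy and the 3 both-tumor therapy libraries are red. The highest both-tumor IgG library is red too, at a mean log2 CPM of 5.72 against 5.75 in the lowest both-tumor therapy library. Replicate 3 of both-tumor IgG (5.08) lies between these and the low libraries. The row of Eif2ak2 is the palest.

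The transcription factors of the pathway followed this pattern. Irf7, the factor that amplifies interferon production, was at 4.37, 179 and 4.89 CPM (intracranial-only IgG), 4.37, 4.82 and 63.1 CPM (intracranial-only therapy), 60.6, 7.28 and 33.5 CPM (both-tumor IgG) and 57.6, 268 and 174 CPM (both-tumor therapy). Its lowest and highest libraries differed 61.2-fold. Stat2, a subunit of ISGF3, was at 18, 150 and 22.6 CPM under IgG and 18.9, 19.6 and 104 CPM under therapy in intracranial-only mice, and 95.4, 23.4 and 58.9 CPM under IgG and 101, 215 and 194 CPM under therapy in mice with both tumors. Irf9, the DNA-binding subunit of ISGF3, was at 20.1, 86.9 and 25.4 CPM in the intracranial-only IgG libraries, 20.5, 22 and 56 CPM in the intracranial-only therapy libraries, 59.9, 21.7 and 55.6 CPM in the both-tumor IgG libraries and 74.3, 96.2 and 92.3 CPM in the both-tumor therapy libraries. The range of Irf9 over the libraries was 4.79-fold, among the narrowest of the 35, and all 3 both-tumor therapy libraries were above all 3 both-tumor IgG libraries. Exons of Irf9 and Rnf31 overlap on 1 strand, and those of Irf7 and Phrf1 overlap on opposite strands, so both values can hold reads of the neighbour.

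Among the sensors, Ddx58, which encodes the RNA helicase RIG-I, was at 13.5, 131 and 16 CPM in the intracranial-only IgG libraries, 11.5, 18 and 82.3 CPM in the intracranial-only therapy libraries, 91.1, 16.8 and 62.1 CPM in the both-tumor IgG libraries and 77.8, 146 and 137 CPM in the both-tumor therapy libraries. Ifih1, which encodes the long double-stranded RNA sensor MDA5, was at 12.1, 93.6 and 9.35 CPM in the intracranial-only IgG libraries, 11.4, 12.2 and 66.3 CPM in the intracranial-only therapy libraries, 63.8, 15.2 and 48.9 CPM in the both-tumor IgG libraries and 56.3, 118 and 104 CPM in the both-tumor therapy libraries. Dhx58, whose product LGP2 modulates those helicases, was at 4.32, 172 and 7.25 CPM (intracranial-only IgG), 5.14, 6.52 and 76.6 CPM (intracranial-only therapy), 68.5, 9.85 and 31.5 CPM (both-tumor IgG) and 64.9, 253 and 152 CPM (both-tumor therapy). In all of these, the first both-tumor therapy library lay below the first both-tumor IgG library, so the groups overlapped. Zbp1, a sensor of Z-form nucleic acid that can start necroptosis, had the widest range of the 35 genes, at 0.527, 231 and 1.61 CPM in the intracranial-only IgG libraries, 1.71, 4.16 and 110 CPM in the intracranial-only therapy libraries, 70.9, 5.26 and 40.2 CPM in the both-tumor IgG libraries and 92.6, 372 and 254 CPM in the both-tumor therapy libraries. Its libraries spanned 707-fold, and the both-tumor therapy libraries lay above the both-tumor IgG libraries, while replicate 3 of intracranial-only therapy lay above the lowest of them.

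In the ISG15 pathway, Isg15, a ubiquitin-like protein that is coupled to other proteins, was at 6.95, 172 and 5.1 CPM under IgG and 4.76, 5.64 and 58.3 CPM under therapy in intracranial-only mice, and 62.2, 7.58 and 32.6 CPM under IgG and 57.9, 184 and 118 CPM under therapy in mice with both tumors. Replicate 1 of both-tumor therapy was below replicate 1 of both-tumor IgG. Usp18, the protease that removes ISG15 and restrains the receptor, was at 4.63, 123 and 4.94 CPM under IgG and 2.27, 4.27 and 37.1 CPM under therapy in intracranial-only mice, and 52.3, 8.39 and 32.7 CPM under IgG and 50, 153 and 100 CPM under therapy in mice with both tumors. Herc6, the mouse ligase for ISG15, was at 20.9, 123 and 17.5 CPM (intracranial-only IgG), 19.9, 29 and 73.2 CPM (intracranial-only therapy), 68.2, 21.9 and 45.6 CPM (both-tumor IgG) and 73.5, 197 and 141 CPM (both-tumor therapy). For Herc6 the 3 both-tumor therapy libraries were above the 3 libraries of both-tumor IgG, and above those of intracranial-only therapy.

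The IFIT proteins bind foreign RNA and curb its translation. Ifit1 was at 6.48, 140 and 5.32 CPM in the intracranial-only IgG libraries, 6.14, 5.59 and 64.3 CPM in the intracranial-only therapy libraries, 61.1, 10.4 and 41.1 CPM in the both-tumor IgG libraries and 53.6, 174 and 122 CPM in the both-tumor therapy libraries. Ifit3 was at 5.95, 221 and 9.24 CPM under IgG and 6.14, 7.07 and 103 CPM under therapy in intracranial-only mice, and 113, 8.84 and 66.8 CPM under IgG and 118, 415 and 290 CPM under therapy in mice with both tumors. Both followed the common pattern, but for Ifit1 the first both-tumor therapy library was below the first both-tumor IgG library, and for Ifit3 it was above. Ifit2 was at 45.6, 186 and 36.1 CPM (intracranial-only IgG), 50.4, 54.8 and 145 CPM (intracranial-only therapy), 106, 55.2 and 76.6 CPM (both-tumor IgG) and 98.4, 432 and 309 CPM (both-tumor therapy). Ifit2 had a higher floor than its neighbours, with no library under 36.1 CPM. The 3 genes lie within 99.3 kb of chromosome 19. Ifit3 has a near-identical copy in the mouse genome, Ifit3b, so its reads are uncertain.

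The OAS enzymes make the oligoadenylates that activate RNase L. Oas1a was at 6.37, 85.8 and 8 CPM (intracranial-only IgG), 8.41, 8.77 and 33.1 CPM (intracranial-only therapy), 37, 9.7 and 27.9 CPM (both-tumor IgG) and 39.8, 84.6 and 67.9 CPM (both-tumor therapy). Oas2 was at 1, 56 and 2.9 CPM (intracranial-only IgG), 0.664, 2.03 and 16.3 CPM (intracranial-only therapy), 26.8, 2.07 and 9.62 CPM (both-tumor IgG) and 28.1, 56.6 and 38.2 CPM (both-tumor therapy). Oas3 was at 0.579, 37.8 and 0.698 CPM under IgG and 0.719, 0.438 and 14.7 CPM under therapy in intracranial-only mice, and 13.9, 0.606 and 4.41 CPM under IgG and 8.27, 62.2 and 35.1 CPM under therapy in mice with both tumors. Oas1a and Mx2 were the only 2 of the 35 genes whose highest library was replicate 2 of intracranial-only IgG. Oas3 spanned 142-fold, and its 5 lowest libraries were all under 1 CPM, where 3 reads are worth 0.136 to 0.166 CPM. Oasl1 ran from 0.553 to 29.7 CPM and Oasl2 from 2.65 to 282 CPM. Oas1a has close copies such as Oas1g that can share reads, and the 5 OAS genes lie on chromosome 5.

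The antiviral effectors include the most abundant of the 35 genes. Bst2, which encodes the membrane protein tetherin, was at 56.3, 842 and 60.1 CPM (intracranial-only IgG), 65.6, 62.3 and 333 CPM (intracranial-only therapy), 288, 97.7 and 232 CPM (both-tumor IgG) and 414, 1050 and 728 CPM (both-tumor therapy). Its mean over the 12 libraries was 466 FPKM, a level per gene length, against 79.6 FPKM for Isg15 and 72.9 FPKM for Dhx58, the next in order. Bst2 alone made up 24.3% to 34.5% of the summed FPKM of the 35 genes in each library. Rsad2, which encodes the radical-SAM enzyme viperin, was at 22.7, 267 and 24.4 CPM under IgG and 22.6, 24.4 and 172 CPM under therapy in intracranial-only mice, and 133, 31.1 and 116 CPM under IgG and 146, 332 and 291 CPM under therapy in mice with both tumors. Cmpk2, the nucleotide kinase gene beside it, was at 13.1, 174 and 13.5 CPM in the intracranial-only IgG libraries, 9.95, 12.5 and 105 CPM in the intracranial-only therapy libraries, 88.6, 17.9 and 61.8 CPM in the both-tumor IgG libraries and 75.6, 187 and 162 CPM in the both-tumor therapy libraries. Both genes lie head to head on chromosome 12, 12751 bases apart, and both were highest in replicate 2 of both-tumor therapy and lowest in replicate 1 of intracranial-only therapy. Samd9l, a restriction factor of poxviruses, ran from 40.3 to 238 CPM.

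The dynamin-like GTPase genes were among the least abundant. Mx1 was at 0.895, 45.8 and 1.67 CPM under IgG and 2.54, 1.42 and 27.1 CPM under therapy in intracranial-only mice, and 20.5, 2.27 and 11.1 CPM under IgG and 11.4, 58.4 and 34.9 CPM under therapy in mice with both tumors. Mx2 was at 1.47, 23.4 and 2.36 CPM in the intracranial-only IgG libraries, 1.49, 1.26 and 10.7 CPM in the intracranial-only therapy libraries, 11.3, 1.82 and 7.49 CPM in the both-tumor IgG libraries and 10.1, 20.5 and 16.1 CPM in the both-tumor therapy libraries. Mean levels were 5.35 FPKM for Mx2, 6.02 FPKM for Oas3, 7.35 FPKM for Oas2 and 7.43 FPKM for Mx1, the lowest 4 of the 35. C57BL/6 mice are known to carry a defective Mx1 allele. Eif2ak2 was at 38.9, 116 and 44.2 CPM in the intracranial-only IgG libraries, 41.6, 50.8 and 109 CPM in the intracranial-only therapy libraries, 94.2, 39.2 and 82.5 CPM in the both-tumor IgG libraries and 83.8, 115 and 119 CPM in the both-tumor therapy libraries. Its libraries spanned 3.05-fold, the narrowest range of the 35, and in both treatment groups of the intracranial-only mice 1 library stood near the both-tumor therapy level.

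Of the PARP and DTX3L genes, whose products act in ADP-ribosylation and ubiquitination of chromatin and viral proteins, Parp14 was at 8.48, 179 and 14.5 CPM under IgG and 10, 16.5 and 144 CPM under therapy in intracranial-only mice, and 108, 16.7 and 86.6 CPM under IgG and 134, 300 and 242 CPM under therapy in mice with both tumors. Parp9 and Dtx3l share a start region on opposite strands of chromosome 16, where the annotated genes overlap by 682 bases, so without strand their reads cannot be separated there. Parp9 ran from 18.6 to 265 CPM and Dtx3l from 19.9 to 216 CPM over the 12 libraries. For all 3 genes the both-tumor therapy libraries were above the both-tumor IgG libraries, and overlapped with replicate 3 of intracranial-only therapy.

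Phf11d, a PHD finger gene with close copies nearby that can share reads, was at 2, 97.4 and 2.95 CPM in the intracranial-only IgG libraries, 1.22, 2.47 and 23.2 CPM in the intracranial-only therapy libraries, 33.5, 2.98 and 16.5 CPM in the both-tumor IgG libraries and 29, 102 and 58.9 CPM in the both-tumor therapy libraries. Ifi27l2a, a small membrane protein gene of the ISG12 family, was at 1, 22.1 and 0.752 CPM in the intracranial-only IgG libraries, 0.332, 2.14 and 2.72 CPM in the intracranial-only therapy libraries, 4.79, 0.859 and 2.13 CPM in the both-tumor IgG libraries and 9.36, 25.6 and 16.9 CPM in the both-tumor therapy libraries. It was the 1 gene of the 35 for which replicate 3 of intracranial-only therapy was close to its own replicate 2, at a ratio of 1.27, whereas the next smallest ratio between those libraries was 2.16 (Eif2ak2). Ifi27l2a was also the least counted, with as few as 6 reads in a library. Rtp4, Xaf1, Trim30a, Ifi35 and Ifi44 ran from 0.442 CPM (Ifi44) to 178 CPM (Rtp4) over all libraries, and each had its highest value in replicate 2 of both-tumor therapy. Trim30a belongs to a family of similar genes and its reads are uncertain.

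**Figure D3:**
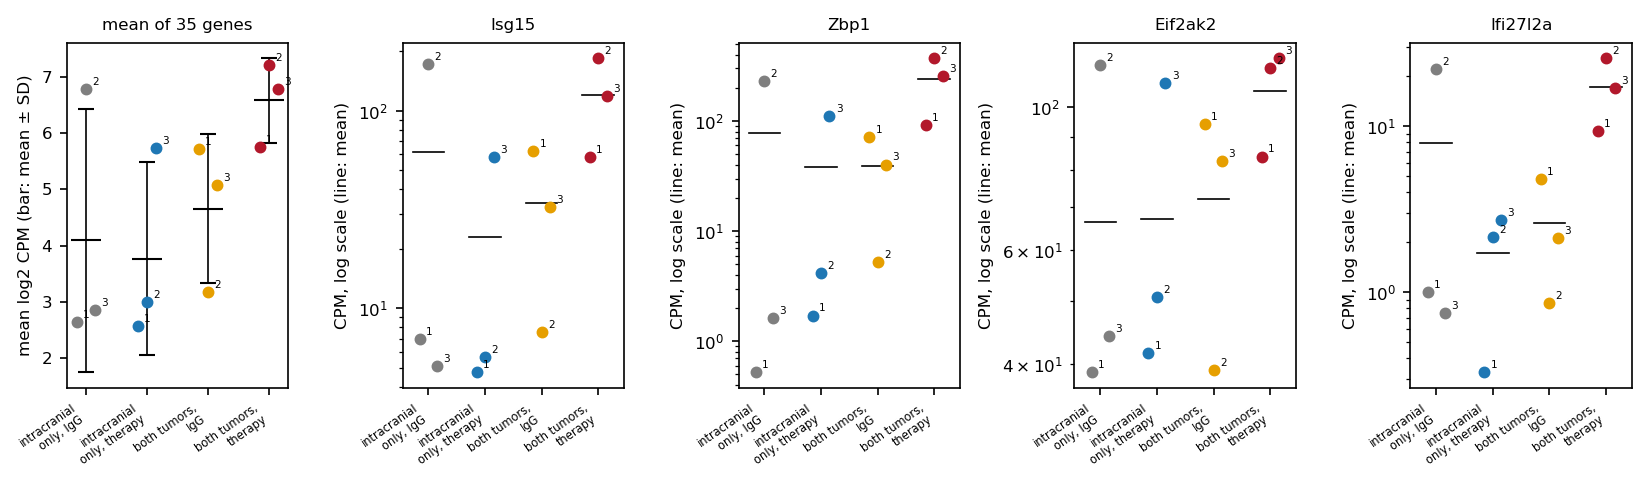
Levels in the 12 libraries by group, with replicate numbers beside the points. The left panel has the mean log2 CPM of the 35 genes with group mean and SD, and the others have CPM on a log axis with the arithmetic group mean for Isg15, Zbp1, Eif2ak2 and Ifi27l2a. One intracranial-only IgG library and 1 intracranial-only therapy library lie far above their replicates, except for Ifi27l2a, where the latter does not.

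The first comparison asks what the antibodies changed in the brain tumor of mice that also had extracranial melanoma. All 35 genes were fitted higher under therapy than under IgG, by 0.55 (Eif2ak2) to 2.73 (Ifi27l2a), with a median of 1.64, a 3.11-fold difference, against a median of 0.02 over all genes, 51.6% of which were fitted higher. None of the 35 passed the test (edgeR's quasi-likelihood test, Benjamini-Hochberg adjusted p under 0.05), where 1.24% of the 15925 genes tested were called higher and 4.14% lower (5.39% in all). At an unadjusted p under 0.05 there were 2 of 35 (Ifit2 and Ifi27l2a), against 33.4% of all genes. DESeq2 called 0 of 35 beside 8.95% of all genes called higher, and limma-voom 0 beside 4.09%. For 19 of the 35 the 3 therapy libraries were all above the 3 IgG libraries, against 17.9% of all genes with groups that do not overlap in that direction.

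Ifit2 came nearest to the threshold, with a log2 fold change of 1.82 ± 0.71 (SE) and adjusted p = 0.112 by edgeR. Its means were 79.2 ± 25.4 CPM under IgG and 280 ± 169 CPM under therapy (mean ± SD, n = 3). Ifi27l2a was at 2.73 ± 1.23 (adjusted p = 0.148, edgeR) and Herc6 at 1.6 ± 0.78 (adjusted p = 0.176, edgeR). Isg15 was at 1.82 ± 1.37, with a 95% interval of -1.21 to 4.84 and adjusted p = 0.347 in edgeR's test, and it went from 34.1 ± 27.4 to 120 ± 63.2 CPM. These intervals are wide: the median SE was 1.21 over the 35 genes and 0.23 over all genes tested.

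By role, medians of this difference were 1.87 for the OAS genes, 1.84 for the 7 others, 1.82 for the IFIT genes, 1.7 for the ISG15 pathway, 1.61 for the sensors, 1.56 for the PARP and DTX3L genes, 1.52 for the transcription factors and 1.33 for the effectors. Therapy libraries all above the IgG libraries, as for 17.9% of all genes, were found for 3 of 3 PARP and DTX3L genes, 6 of 7 others, 2 of 3 transcription factors, 3 of 5 OAS genes, 1 of 3 IFIT genes, 1 of 3 ISG15 pathway genes, 2 of 7 effectors and 1 of 4 sensors. Other lists went with it. Summed T cell markers (9 genes, of which each had reads in each group) were at 13.9, 1.57 and 16.8 CPM under IgG and 48.9, 107 and 101 CPM under therapy, and monocyte and macrophage markers (8 genes) at 110, 34 and 134 CPM and 229, 394 and 464 CPM. Neuron markers were at 644, 117 and 847 CPM and 604, 1870 and 1550 CPM. In the edgeR fit, which called 1.24% of all genes higher, 0 of 9 T cell, 1 of 8 monocyte and macrophage and 1 of 12 neuron markers rose. The part of these cells in the result was not tested. With the mean log2 CPM of the neuron markers as a covariate the median of the 35 genes was 1.47.

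The same antibodies in mice with the intracranial tumor alone gave a difference with no stable sign. The fitted median was -0.99 under therapy against IgG, compared with -0.03 over all genes, and 34 of 35 genes were fitted below 0, from -2.19 (Ifi27l2a) to 0.02 (Eif2ak2). Of all genes, 46.3% were fitted above 0. No gene of the 35 passed edgeR's quasi-likelihood test, which called 0% of all genes in either direction, and 0 of 35 had an unadjusted p under 0.05, against 13.5% of all genes. DESeq2 called 0 of 35 beside 5.77% of all genes, and limma-voom called 0 of 35 and 0% of all genes. Without replicate 2 of the IgG group the median became 1.68, and without replicate 3 of the therapy group it became -2.67. Each group had 1 high library, and for none of the 35 genes were the groups apart (8.78% of all genes higher and 14.4% lower did not overlap).

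Ifi27l2a was at -2.19 ± 1.22 (adjusted p = 0.482 in edgeR's test), with 7.97 ± 12.3 CPM under IgG and 1.73 ± 1.24 CPM under therapy, and at 0.98 without the high IgG library. Phf11d was at -1.92 ± 1.48 and Usp18 at -1.6 ± 1.33 (adjusted p = 0.637 and 0.665, edgeR), and without that library they were at 1.87 and 1.61. Isg15 was at -1.41 ± 1.36 (adjusted p = 0.707, edgeR), from 61.2 ± 95.6 to 22.9 ± 30.7 CPM, and at 1.93 without it. An arithmetic mean of 61.2 ± 95.6 CPM describes no library of the IgG group, which had 6.95, 172 and 5.1 CPM.

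T cell markers in these 6 libraries summed to 1.11, 22 and 0.537 CPM under IgG and 1.94, 1.92 and 10.4 CPM under therapy, and monocyte and macrophage markers to 40.9, 215 and 42.8 CPM and 41.1, 41.3 and 89.7 CPM. Both lists were highest in the libraries where the 35 genes were highest. Neuron markers were not: they were at 511, 358 and 737 CPM under IgG, lowest in the library with the highest interferon-stimulated genes, and at 111, 120 and 111 CPM under therapy. Microglia markers, at 76.5, 96.8 and 81.1 CPM and 57.1, 50.8 and 45.2 CPM, differed by far less between replicates than the 35 genes did. The part of T cells and macrophages in the high libraries was not tested.

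**Figure D4:**
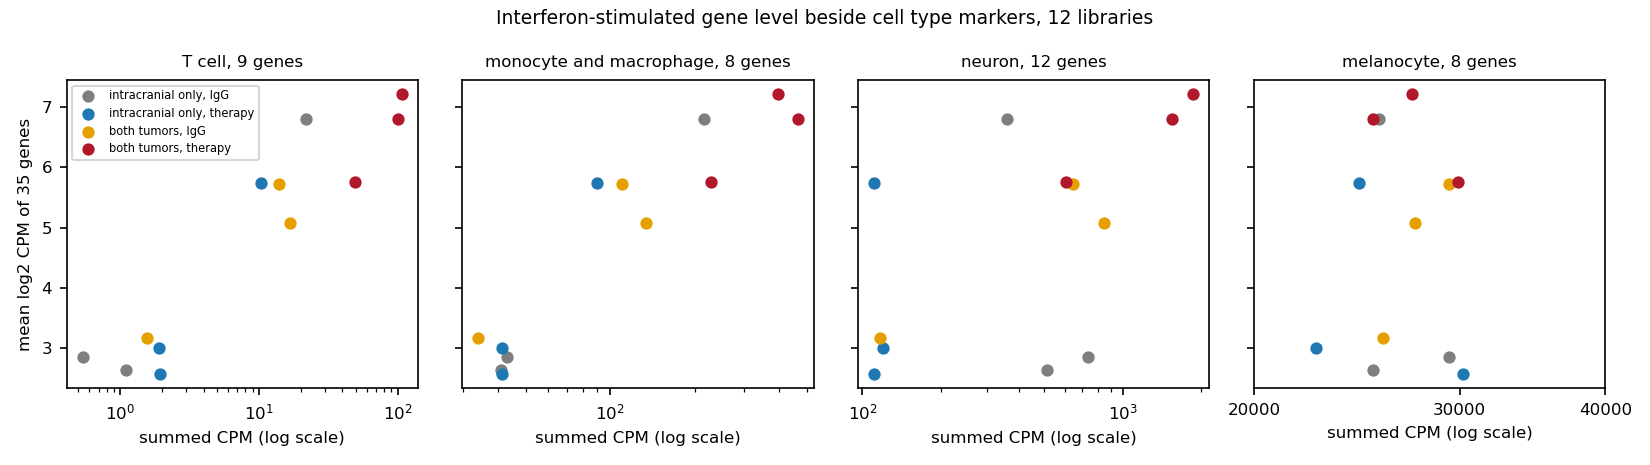
Mean log2 CPM of the 35 genes in each library (vertical axis) against the summed CPM of marker genes on a log axis, for T cells, monocytes and macrophages, neurons and melanocytes, with 1 point per library coloured by group. Points with few T cell and macrophage reads lie low in their panels, whereas the neuron and melanocyte panels hold low and high points at like marker sums.

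The extracranial tumor under IgG was compared next. The fitted median of both-tumor IgG over intracranial-only IgG was -0.33, with 7 of 35 genes above 0, against 0.01 over all genes, 52.5% of which were above 0. None of the 35 passed edgeR's quasi-likelihood test, with an adjusted p of 1 for each, 0 had an unadjusted p under 0.05 (1.18% of all genes did), DESeq2 and limma-voom called 0, and 0% of all genes were called. No gene of the 35 had groups that do not overlap, against 1.68% of all genes higher and 2.78% lower. The sign depended on the scale and on single libraries: the median was 0.56 in limma-voom and 0.39 on log2(FPKM + 1), 2.08 without replicate 2 of intracranial-only IgG, and 0.05 without replicate 2 of both-tumor IgG. Ifi27l2a was at -1.62 ± 1.19, Phf11d at -0.95 ± 1.44 and Isg15 at -0.84 ± 1.34, each with adjusted p = 1 in edgeR's test. Without replicate 2 of intracranial-only IgG the 3 genes were at 1.56, 2.83 and 2.5.

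Under therapy, the extracranial tumor came with the largest median of the 4 comparisons between groups. All 35 genes were fitted higher in both-tumor therapy than in intracranial-only therapy, by 0.65 (Eif2ak2) to 3.31 (Ifi27l2a), with a median of 2.13, a 4.37-fold difference, against 0.03 over all genes, 51.6% of which were fitted higher. Again none of the 35 passed edgeR's quasi-likelihood test, although 24.4% of all genes tested were called higher and 21% lower (45.4% in all). An unadjusted p under 0.05 was found for 6 of 35 (Ifit2, Irf9, Trim30a, Herc6, Samd9l and Ifi27l2a), against 53.9% of all genes. The groups did not overlap for 16 of 35, against 31.4% of all genes in that direction. Calls were few for these genes beside the background, and their median SE was 1.25 where that of all genes was 0.23.

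Ifi27l2a came nearest, at 3.31 ± 1.26 (adjusted p = 0.0532, edgeR's quasi-likelihood test), from 1.73 ± 1.24 to 17.3 ± 8.11 CPM. Ifit2 was at 1.75 ± 0.71 (adjusted p = 0.0664, edgeR), from 83.3 ± 53.2 to 280 ± 169 CPM. Irf9 was at 1.41 ± 0.6 (adjusted p = 0.0742, edgeR), from 32.9 ± 20.1 to 87.6 ± 11.7 CPM. For Ifi27l2a and Irf9, all 3 both-tumor libraries were above all 3 intracranial-only ones, and for Ifit2 replicate 3 of intracranial-only therapy was above replicate 1 of both-tumor therapy. Isg15 was at 2.39 ± 1.4 (adjusted p = 0.184, edgeR), with an interval of -0.71 to 5.48.

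The 7 others in the list had the highest median by role, at 2.81. For 7 of 7 the groups did not overlap, as for 31.4% of all genes in that direction. The OAS genes had a median of 2.68 and the PARP and DTX3L genes 1.66, the latter with 0 of 3 apart. The count of calls was not fixed: DESeq2 called 3 of 35 beside 22.9% of all genes higher, and limma-voom 3 beside 22.8%. The count was 15 without replicate 3 of intracranial-only therapy (20.5% of all genes), 11 without replicate 2 of intracranial-only IgG (25.7%) and 2 without replicate 2 of both-tumor IgG (26.7%). Without the replicates 2 of both IgG groups together it was 22, beside 28.6% of all genes called higher. It was 1 without replicate 1 (23.8% of all genes called higher) or 3 (24.3%) of intracranial-only IgG or replicate 1 of both-tumor therapy (24%). Without replicate 3 of intracranial-only therapy, the library of that group with high levels, the median was 3.96. Markers of other cells differed too: 8 of 9 T cell, 4 of 8 monocyte and macrophage, 7 of 7 microglia and 12 of 12 neuron markers rose in edgeR's fit, against 24.4% of all genes. With the mean log2 CPM of the neuron markers as a covariate the median was 1.35 and 0% of all genes were called. These markers summed to 111 to 120 CPM in intracranial-only therapy and 604 to 1870 CPM in both-tumor therapy. The fit can therefore hardly separate the covariate from the group. The part of the marked cell types in the result was not tested.

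**Figure D5:**
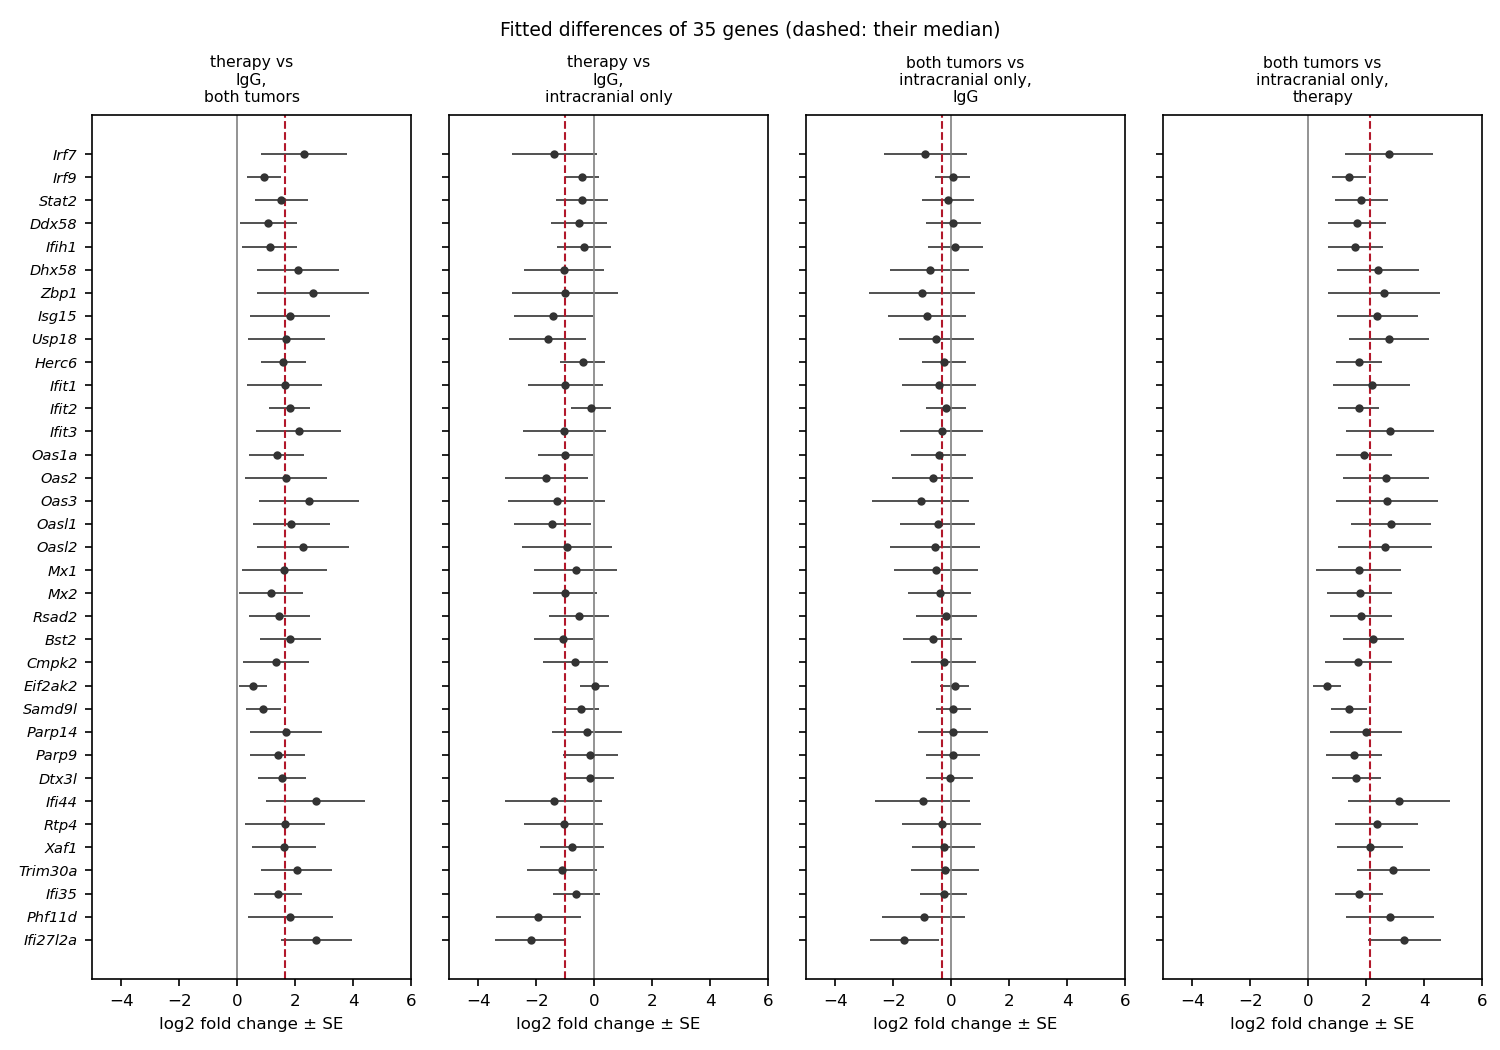
Fitted log2 fold change of each of the 35 genes with its SE in 4 comparisons, with a grey line at 0 and a dashed line at the median of the 35. All 35 points lie above 0 in the first and the last panel and most lie below 0 in the middle panels, and many bars are longer than 1 unit to each side.

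The difference between both therapy effects, fitted as an interaction, tests whether the antibodies acted differently with and without extracranial melanoma. Its median was 2.39 over the 35 genes and 0.04 over all genes, with 35 of 35 above 0 (52.3% of all genes), from 0.54 to 4.93. No gene of the 35 passed edgeR's quasi-likelihood test, where 12.1% of all genes were called higher and 9.93% lower (22% in all). Only Ifi27l2a had an unadjusted p under 0.05 (39.4% of all genes did). DESeq2 called 1 of 35 beside 16.2% of all genes called higher, and limma-voom 0 beside 3.76%. Ifi27l2a was at 4.93 ± 1.73 (adjusted p = 0.0621, edgeR), Bst2 at 2.88 ± 1.46 (adjusted p = 0.167, edgeR), Ifit2 at 1.92 ± 0.99 (adjusted p = 0.173, edgeR) and Isg15 at 3.23 ± 1.93 (adjusted p = 0.233, edgeR). This difference also rested on 1 library: without replicate 2 of intracranial-only IgG the median was -0.12 and 13 of 35 genes were above 0, and Isg15 was at -0.12. Without replicate 3 of intracranial-only therapy the median was 4.28. Without replicate 1 of intracranial-only IgG 1 gene was called, Ifi27l2a, beside 10.1% of all genes called higher.

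The ligands of the pathway were hardly measured. Of 20 genes for type I and type III interferons, 16 had no read in any of the 12 libraries, among them the 13 listed Ifna genes. Ifnb1 had 3 reads in all, from 3 libraries, Ifnz 2 reads, and Ifnk and Ifnl2 1 read each. A count of 0 allows up to 3 reads in a library, or 0.136 to 0.166 CPM, so low levels of these short transcripts were not detectable at this depth. Markers of plasmacytoid dendritic cells, known as strong producers of interferon alpha, summed to 67.3 to 271 CPM over 7 genes, most of it from Tcf4 (64.2 to 156 CPM), a factor that many cells express. Siglech, a lectin gene that also marks microglia, was at 0.895, 1.6 and 0.967 CPM in the intracranial-only IgG libraries, 0, 0.11 and 0.138 CPM in the intracranial-only therapy libraries, 1.72, 0.0505 and 3.42 CPM in the both-tumor IgG libraries and 4.41, 7.46 and 8.22 CPM in the both-tumor therapy libraries. Of the 7 genes, 6 rose in edgeR's test with the extracranial tumor under therapy, against 24.4% of all genes. So did 12 of 12 neuron and 7 of 7 microglia markers, and the part of brain tissue in the rise was not tested. Ifng, the gene for interferon gamma, was at 0, 2.48 and 0 CPM in the intracranial-only IgG libraries, 0.0553, 0 and 2.86 CPM in the intracranial-only therapy libraries, 1.15, 0.202 and 0.545 CPM in the both-tumor IgG libraries and 3.73, 18.5 and 7.72 CPM in the both-tumor therapy libraries. Its reads were most frequent in both-tumor therapy and stood at 0 in 3 libraries, all of them low in the 35 genes.

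The receptor and its kinases varied little. Ifnar1 ran from 110 to 158 CPM, Tyk2 from 47 to 66.8 CPM and Jak1 from 94.5 to 165 CPM over the 12 libraries. Ifnar2 rose in both-tumor therapy against intracranial-only therapy, by 0.79 ± 0.2 (adjusted p = 0.0104, edgeR). Irf1, a factor induced by interferon gamma in particular, was at 16.6, 279 and 17.5 CPM (intracranial-only IgG), 16.4, 28.5 and 225 CPM (intracranial-only therapy), 135, 34.3 and 159 CPM (both-tumor IgG) and 262, 719 and 476 CPM (both-tumor therapy). In both-tumor IgG its highest library was replicate 3, and in the other groups it was the one where most of the 35 genes were highest.

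Of the 10 receptor and signaling genes, 1 rose under therapy with both tumors present, where 1.24% of all genes did. With the extracranial tumor under therapy 3 of 10 rose, close to the 24.4% of all genes. The first was Socs3, a feedback inhibitor of cytokine receptors, at 21.8, 52 and 22.3 CPM under IgG and 13.4, 32.9 and 30.8 CPM under therapy in intracranial-only mice, and 24.7, 22.1 and 28.4 CPM under IgG and 48.3, 103 and 97.7 CPM under therapy in mice with both tumors. It rose by 1.72 ± 0.43 with therapy (adjusted p = 0.0498, edgeR) and by 1.69 ± 0.43 with the extracranial tumor (adjusted p = 0.0106, edgeR). The lowest adjusted p of any gene for therapy was also 0.0498 in edgeR's test. The call for therapy held in 7 of 21 alternatives, among them DESeq2, limma-voom and both FPKM scales. It was lost with RLE factors (adjusted p = 0.0553), without the filter (0.0516) and with only the groups compared (0.146, edgeR in each). It was also lost without both libraries that stood apart (adjusted p = 0.112) and with the neuron-marker covariate (0.253, edgeR in each). All of the fits that lost it called 0% of all genes. With 1 library left out the call held in 3 of 12 fits, those without replicate 2 of intracranial-only IgG, replicate 3 of both-tumor IgG or replicate 1 of both-tumor therapy. The other fits of this kind called 0% of all genes. The call for the extracranial tumor was lost in 1 of 21 alternatives, the neuron covariate, at 1.67 (adjusted p = 0.709, edgeR). That fit called 0% of all genes. Neuron markers did not overlap between the groups compared, so it can hardly separate the covariate from the group. Also called with the extracranial tumor under therapy was Ptpn6, the phosphatase gene of blood cells, at 1.02 ± 0.3 (adjusted p = 0.018, edgeR). Socs1, the inhibitor of JAK kinases, did not pass and was at 1.16, 34.6 and 1.18 CPM in the intracranial-only IgG libraries, 0.995, 1.42 and 16 CPM in the intracranial-only therapy libraries, 10, 2.38 and 11.4 CPM in the both-tumor IgG libraries and 26.4, 95.6 and 62.5 CPM in the both-tumor therapy libraries.

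Of 14 genes that induce interferon, 0 were called for therapy in both-tumor mice, beside 5.39% of all genes. An unadjusted p under 0.05 in edgeR's test was found for 4 of 14, against 33.4% of all genes. With the extracranial tumor under therapy 4 rose and 1 fell, beside 24.4% of all genes higher and 21% lower. Those that rose were Tlr7, an endosomal RNA receptor (2.11 ± 0.71, adjusted p = 0.0334, edgeR), its chaperone Unc93b1 (1.83 ± 0.55, adjusted p = 0.021, edgeR), the adaptor Myd88 (1.27 ± 0.38, adjusted p = 0.0208, edgeR) and the kinase Ikbke (0.6 ± 0.2, adjusted p = 0.0313, edgeR). Mb21d1, which encodes the DNA sensor cGAS, fell by 0.88 ± 0.22 (adjusted p = 0.00964, edgeR). Its libraries were at 16, 15 and 15.5 CPM under IgG and 23.9, 17 and 20.6 CPM under therapy in intracranial-only mice, and 21.2, 18.6 and 15.2 CPM under IgG and 14.5, 8.21 and 10.6 CPM under therapy in mice with both tumors. The 3 both-tumor therapy libraries were the lowest of the 12. The calls of Tlr7, Unc93b1, Myd88 and Ikbke were lost without replicate 1 or 2 of intracranial-only therapy or replicate 2 or 3 of both-tumor therapy (adjusted p 0.0541 to 0.126, edgeR), and that of Ptpn6 without replicate 1 or 3 of intracranial-only therapy or replicate 2 of both-tumor therapy (0.05 to 0.0858). The call of Mb21d1 held in 20 of 21 alternatives. With the neuron covariate 0% of all genes were called, and Tlr7 was at 0.07, Ptpn6 at 0.18 and Mb21d1 at -0.67. The cGAS adaptor gene Tmem173 ran from 31.2 to 79.8 CPM, and Irf3, the factor that cGAS signaling activates, from 30.5 to 42.9 CPM.

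Other interferon-stimulated genes were measured as a second list of 49, of which 48 were tested. Their medians were 1.61 for therapy with both tumors, -0.78 for therapy with the intracranial tumor alone, -0.27 for the extracranial tumor under IgG, 1.98 for the same under therapy and 2.48 for the interaction. With the extracranial tumor under therapy, Ly6e alone rose and Pnpt1 alone fell in edgeR's test, beside 24.4% of all genes higher and 21% lower. An unadjusted p under 0.05 was found there for 10 of 48, against 53.9% of all genes. Elsewhere 0 were called. An unadjusted p under 0.05 was found for 2 of 48 for therapy with both tumors, against 33.4% of all genes. It was found for 2 of 48 for the interaction, against 39.4%, and for 0 in the other comparisons. A list of 29 genes typical of interferon gamma had medians of 2.42, -0.5, -0.18, 2.74 and 3.04 in the same order. In this list 2 of 29 genes rose with therapy in both-tumor mice, where 1.24% of all genes did. They were the receptor gene Ifngr1 and the nitric oxide synthase gene Nos2, each at an adjusted p of 0.0498 in edgeR. Each call held in 6 of 21 alternatives, not with RLE factors (adjusted p = 0.0553 for both, edgeR) or the neuron covariate (0.253). In either of those fits 0% of all genes were called. With 1 library left out, both calls held without replicate 2 of intracranial-only IgG or replicate 1 of both-tumor therapy, and that of Nos2 also without replicate 3 of both-tumor IgG. Both rose with the extracranial tumor under therapy too (20 of 21 alternatives for each), where 24.4% of all genes rose. Nos2 alone in the list was called for the interaction (9 of 20 alternatives), where 12.1% of all genes were called higher. For 28 of 29 genes the 3 therapy libraries of both-tumor mice were above the 3 IgG libraries, against 17.9% of all genes. These lists share libraries with the 35 genes and respond to overlapping signals, so the difference between them was not tested.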

How the data were processed

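RNA-seq was done on 12 intracranial tumors. Per the submitters' processing notes, TopHat2 2.0.12, Bowtie2 2.2.3 and HTSeq 0.6.1 were used, with the builds GRCm38 and mm10. Neither the annotation release nor the use of strand in counting is given in the sources used here. The authors deposited raw read counts, on which all tests were run, and FPKM values (counts per gene length and library total), which served for levels between genes and as an alternative scale.

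Genes were tested with edgeR 4.0.16 in R 4.3.3: filterByExpr (minimum count 10, minimum total 15), TMM factors, 4 group means in 1 fit of all libraries, quasi-likelihood F test, Benjamini-Hochberg adjustment over 15925 genes, threshold 0.05. The common dispersion gave a biological coefficient of variation of 33.5%. An SE is the absolute log2 fold change over the square root of F. Log2 CPM used a prior count of 2. Alternatives were RLE factors, no filter, DESeq2 1.42.0, limma-voom (limma 3.58.1), log2(FPKM + 1) and log2(FPKM + 0.1) with limma, only the groups compared, a neuron-marker covariate, and leaving out libraries. The covariate was the mean log2 CPM of the neuron markers in each library.

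On simulated counts for therapy in both-tumor mice, with 200 of 13900 genes changed, the test recovered 39% of genes changed 2-fold and 73% of those changed 4-fold, with 4 false calls. Without a change it called 0. These shares are over all simulated changed genes and do not give the power for the interferon-stimulated genes, which varied more between replicates. The median SD within groups of the latter was 1.65, against 0.27 over all genes tested. Their median SE for therapy in both-tumor mice was 1.21, against 0.23. Recovery for genes of that spread was not tested.

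The 35 genes, the marker and pathway lists (226 symbols, all matched) and the tests were chosen with earlier results of these data known. Values in every library are given for 19 genes of central roles, the 3 with the smallest p in each comparison and the 3 most and least abundant. Library-level markers and Socs3, Mb21d1 and Irf1 came from the pathway lists, and the other pathway genes are those called. Ensembl coordinates are of GRCm38 (GENCODE M21). Promoter windows are RefSeq's. The binomial intervals and the floors cover counting error only, whereas intervals of fold changes include the spread between libraries. Since edgeR compares means of counts, a single high library pulls its fold changes more than those of limma on the log2 scale. A result for 1 pathway gene is not reported here.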

Additional observations from a re-analysis of the deposited data

Results flagged for a closer look

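Among the pathway genes outside the 35, the therapy effect differed between mice with both tumors and mice with the intracranial tumor alone for 2, by the interaction in edgeR's quasi-likelihood test. Socs3, the feedback inhibitor, had an interaction of 2.04 ± 0.6 (adjusted p = 0.0391, edgeR), and its libraries under therapy were at 13.4, 32.9 and 30.8 CPM with the intracranial tumor alone and at 48.3, 103 and 97.7 CPM with both. Mb21d1, the cGAS gene, had an interaction of -1.13 ± 0.31 (adjusted p = 0.034, edgeR), with 23.9, 17 and 20.6 CPM and 14.5, 8.21 and 10.6 CPM in the same groups. Neuron markers in those groups summed to 111 to 120 CPM and 604 to 1870 CPM. With the mean log2 CPM of these markers as a covariate, edgeR called 0% of all genes for the interaction. In that fit Socs3 was at 2.02 and Mb21d1 at -0.88 (adjusted p = 0.865 for both, edgeR). The Socs3 call held in 8 of 20 alternatives and in 3 of the 12 fits with 1 library left out, those without replicate 1 of intracranial-only IgG, replicate 3 of both-tumor IgG or replicate 1 of both-tumor therapy. The Mb21d1 call held in 10 of 20 and in 4 of 12, those same 3 and the fit without replicate 2 of both-tumor IgG. The remaining fits with 1 library left out called 0% of all genes.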

How the results depend on the processing

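No paired analysis was possible because the labels carry no replicate numbers. For therapy in both-tumor mice, 0 of the 35 genes were called under each of the 21 alternatives, beside 0% to 20.5% of all genes. Many of these fits called 0% of all genes, among them those with RLE factors, without the filter and with only the groups compared. The median stayed above 0 under each alternative, at 1.19 to 2.12 when 1 library was left out. For therapy with the intracranial tumor alone the median ran from -2.67 to 1.68 with 1 library left out, and was 1.68 without the replicates 2 of both IgG groups. In that comparison the ranges were -2.74 to 0.98 for Ifi27l2a, -4.26 to 1.87 for Phf11d, -3.81 to 1.61 for Usp18 and -3.61 to 1.93 for Isg15, and without both those libraries 0.99, 1.87, 1.62 and 1.94. For the extracranial tumor under IgG the median ran from -0.88 to 2.08 with 1 library left out, and was 0.56 in limma-voom, 0.39 on log2(FPKM + 1), 0.55 on log2(FPKM + 0.1) and 2.5 without both libraries. There Ifi27l2a ran from -2.41 to 1.56 (1.97 without both libraries), Phf11d from -1.81 to 2.83 (3.33) and Isg15 from -1.61 to 2.5 (2.97), and limma-voom and both FPKM scales gave 0.5, 0.25 and 0.47 for Phf11d and 0.43, 0.39 and 0.44 for Isg15. For the extracranial tumor under therapy the genes called were 3 in DESeq2 and 3 in limma-voom. They were 8 on log2(FPKM + 1), 6 on log2(FPKM + 0.1) and 9 with only the groups compared. In those fits 22.8% to 28.1% of all genes were called higher. The count was 22 without both libraries (28.6%) and 0 to 15 with 1 library left out (15.9% to 26.7%), where the median ran from 1.67 to 3.96. Ifi27l2a passed there in 10 of 21 alternatives (adjusted p 0.00269 to 0.781), Irf9 in 8 (0.00743 to 0.854) and Ifit2 in 4 (0.0223 to 0.792). For the interaction 1 gene was called in DESeq2 (16.2% of all genes were called higher) and 0 to 1 with 1 library left out (0% to 14.6%). The median ran from -0.12 to 4.28 and was -0.57 without both libraries, and Isg15 ran from -0.12 to 5.41 and was -0.6. The cause was not tested. Depth limits the interferon genes, and at most the lowest libraries of Ifi27l2a, Ifi44 and Oas3, with 6 to 8 reads.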

Other observations

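Single libraries from different groups had close profiles over the 35 genes. Replicate 3 of both-tumor therapy over replicate 2 of intracranial-only IgG, a mouse with neither the antibodies nor the extracranial tumor, gave a median ratio of CPM of 1.04, from 0.605 (Phf11d) to 1.66 (Ifit2), with 19 of 35 genes above 1. Replicate 2 of both-tumor therapy over the same library gave a median of 1.27, from 0.874 (Mx2) to 2.32 (Ifit2), with 32 of 35 above 1. In both of these ratios Ifit2 was the highest. Replicate 3 of intracranial-only therapy over replicate 1 of both-tumor IgG had a median of 1.05, from 0.568 (Ifi27l2a) to 1.55 (Zbp1). Replicate 1 of both-tumor therapy over the same library had a median of 1.04, from 0.556 (Mx1) to 1.96 (Ifi27l2a). These are ratios of 2 libraries each, with no test of a condition.

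The 35 genes lie on 14 chromosomes, with 6 on chromosome 16 and 5 on chromosome 5. Ifit2 and Ifit3 are 7111 bases apart and Ifit3 and Ifit1 52139 bases, Oas2 and Oas3 3244 bases, Oasl2 and Oasl1 11005 bases, and Mx1 and Mx2 72400 bases. Neighbours still differed in range: between the lowest and highest of the 12 libraries Ifit2 differed 12-fold, Ifit1 32.8-fold and Ifit3 69.7-fold, and Mx2 differed 18.6-fold beside 65.2-fold for Mx1.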
